A study of Homo sapiens with 2 samples.

Results

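The genes of cholesterol and fatty acid synthesis were examined in Huh7 cells, a human hepatocellular carcinoma line, after knockdown of BRF2. The set was taken from a list of 37 gene symbols, all of which were found among the 61541 genes of the deposited table. It was divided by role into 5 groups: the SREBP system (5 genes), the mevalonate pathway from acetyl-CoA to farnesyl diphosphate (7 genes), the steps from squalene to cholesterol (11 genes), sterol uptake and transport (4 genes) and lipogenesis, the making and remodelling of fatty acids (10 genes). The list does not cover every enzyme of these routes. Huh7 cells that received a control siRNA (Huh7-NC) were compared with Huh7 cells that received an siRNA against BRF2 (Huh7-si), to ask which mRNAs differ when BRF2 is reduced. Each group is 1 library made from total RNA. The siRNAs were delivered by transfection, and which BRF2 siRNA was sequenced is not given in the sources used here.

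Hepatocytes make much of the body's cholesterol, and both cholesterol and fatty acids are built from cytosolic acetyl-CoA. The pathway is controlled by the SREBP transcription factors, which are made as membrane proteins of the endoplasmic reticulum. When sterols are scarce, SCAP carries them to the Golgi, where proteases release the active factor, and when sterols are plentiful the INSIG proteins hold SCAP back. The products of SREBF2 act mainly on cholesterol genes and those of SREBF1 on lipogenic genes, and INSIG1 is itself an SREBP target.

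The control library (Huh7-NC) held 22852648 reads on 22613 genes and the knockdown library (Huh7-si) held 22088971 on 24656 genes; their reads are called control reads and knockdown reads here. BRF2, the siRNA's target, encodes part of the initiation factor of RNA polymerase III and had 1281 control reads and 364 knockdown reads. Its log2 ratio was -1.76 (95% interval of -1.94 to -1.60; exact binomial p = 5.0e-113). All 10 hepatocyte and hepatoma markers, ALB, AFP and APOB among them, were above 1 TPM in both libraries, with a sum of 23400 TPM in Huh7-NC and 22800 in Huh7-si. Single markers moved in opposite directions: from Huh7-NC to Huh7-si, APOB went from 76.6 to 179 TPM and APOA1 from 1195 to 755 TPM. Of 13 markers of leukocytes, endothelium, fibroblasts and biliary cells, 7 were under 1 TPM in both, DCN had no reads in either, which allows up to 3, and the sum was 657 and 663 TPM, most of it LYZ (438 and 433) and KRT19 (178 and 176). Changes are given as the log2 ratio, or log2 fold change, of CPM (a gene's reads scaled to the total reads of its library), Huh7-si over Huh7-NC, for genes with at least 10 reads over both libraries. The exact binomial test compares the reads of 2 libraries rather than of 2 conditions, the 95% Clopper-Pearson intervals cover counting error only, and no difference has a replicate check. In a bulk library, fewer cells that express a gene and less of its RNA per cell cannot be told apart.

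By total reads, the members split by role. All 7 mevalonate genes and 8 of the 11 genes from squalene to cholesterol had fewer reads in Huh7-si at p under 0.05 (exact binomial test). The acetyl-CoA carboxylases, fatty acid synthase (FASN) and the cholesterol transporters NPC1 and NPC1L1 had more. Against the median of genes of similar length, however, FASN was at -0.02, ACACA at -0.15 and ACACB at 0.09. NPC1 was at 0.40 and NPC1L1 at 0.23 on that scale. Below that median were all 7 mevalonate genes, 10 of the 11 from squalene to cholesterol and 9 of the 10 lipogenic genes. Below the median of genes of similar level were 7, 8 and 3 genes of these groups, with FASN at 0.67 on that scale. None of the 37 reached a fold of 2 in either direction in the exact binomial test or in edgeR's exact test, against 12.9% of the 17957 genes tested for higher calls and 1.17% for lower calls. At p under 0.05 alone, 12 members (32.4%) were higher, against 41.8% of all genes tested, and 19 (51.4%) were lower, against 20%. With a fold of 1.5 as well, 3 members were higher (NPC1, NPC1L1 and ACACB; background 23.5%) and 4 were lower (ACAT2, FDPS, NSDHL and EBP; background 3.89%). These fold-of-1.5 counts became 0 higher and 12 lower with TMM scaling (all genes 15.2% and 11.3%), 1 and 11 with the upper quartile (16.4% and 9.78%) and 0 and 11 with the median of ratios (15.8% and 10.6%). The median log2 ratio of the members was -0.11 (0.08 by TPM), ranging from -0.77 to 0.78, and that of all genes tested was 0.21 (0.37 by TPM).

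**Figure D1:**
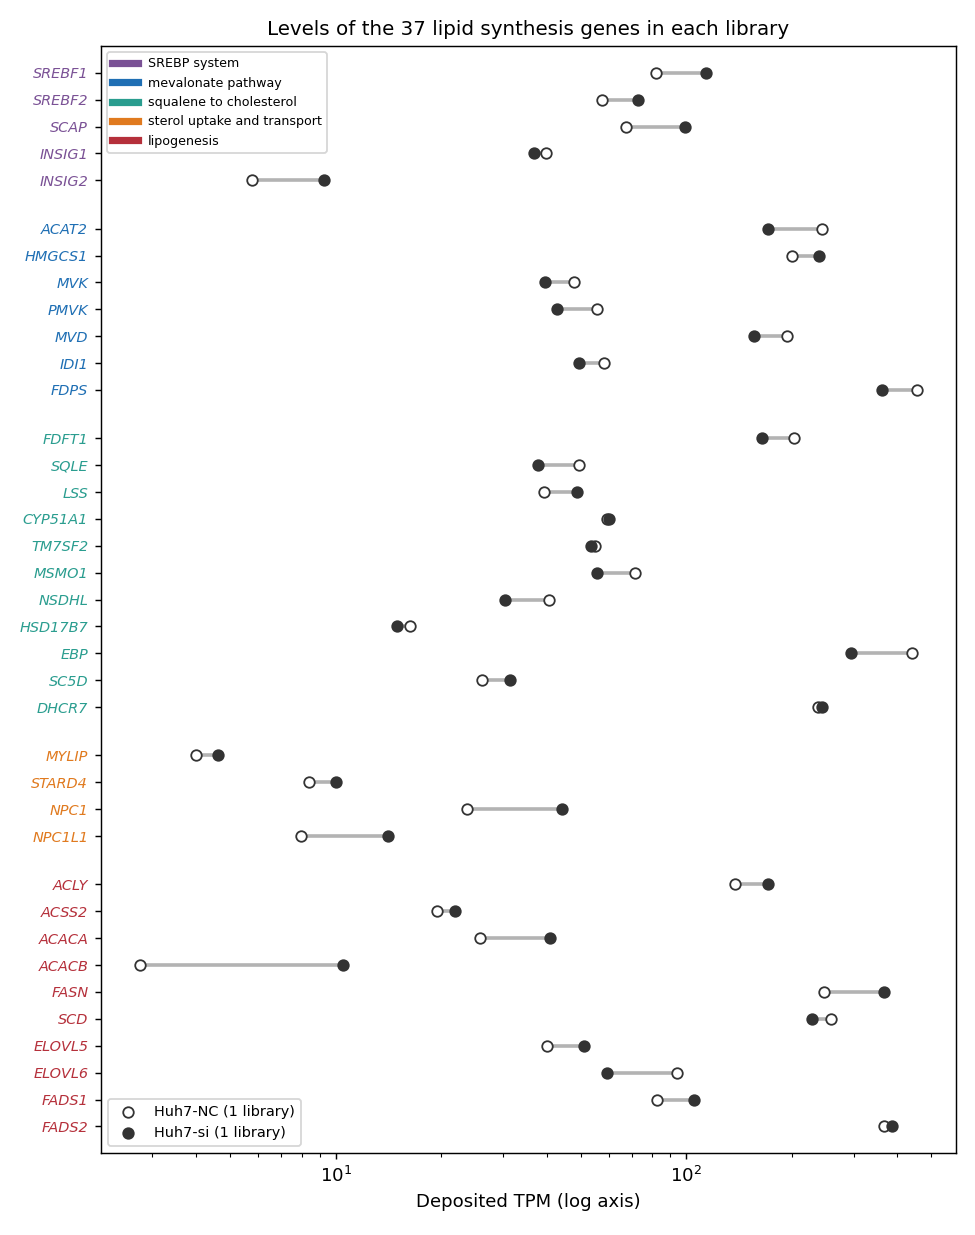
TPM of each of the 37 genes (log axis, 1 row per gene, coloured by role) in the Huh7-NC library (open circle) and the Huh7-si library (filled circle), with a grey line joining them. The levels run from 2.76 TPM (ACACB, Huh7-NC) to 454 TPM (FDPS, Huh7-NC), and 6 of the 7 mevalonate genes have the filled circle on the left.

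The members were well expressed, with mean levels from 9.75 to 1080 CPM. Among the 9931 genes at or above 9.75 CPM, the median log2 ratio was 0.09, and 31.2% were lower and 45.7% higher at p under 0.05. In these genes a fold of 1.5 was passed by 3.54% downward and 16.2% upward, a fold of 2 by 0.171% and 4.67%, and the p of edgeR's exact test, run with an assumed spread between cultures of 0.1 (coefficient of variation), by 10.5% and 24.0%. In that edgeR test over all 17957 genes, 11 members (29.7%) were lower at p under 0.05, against a background of 7.61%, and all 11 encode enzymes of the mevalonate pathway or of the steps from squalene to cholesterol. Under the same assumption 5 members (13.5%) were higher, against 26.5%, namely NPC1, NPC1L1, ACACA, ACACB and FASN. With an assumed coefficient of 0.4, no member passed in edgeR's test, where 3.17% of all genes tested were higher and 0.301% lower. The true spread between cultures is unknown in this design.

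Change also moved with gene length and with level over all genes. The median log2 ratio rose from -0.17 in genes of 700 to 959 bases to 0.67 in those above 8484 bases, and it was 0.70 in genes of 0.446 to 0.672 CPM and -0.15 in those above 205 CPM, where 13 members lay. Against the median of genes of similar length, 32 of the 37 members (86.5%) were lower, against 50.0% of all genes by construction. Fewer members were lower against genes of similar level (22) or of similar length and level (25). Of the 10 lipogenic genes, 3 were lower against similar level and 6 against both. Other scalings shifted every log2 ratio, by -0.22 with TMM, -0.19 with the upper quartile and -0.21 with the median of ratios. By total reads 22 of the 37 members were below 0, against 35.1% of all genes tested. These stayed below 0 under the 3 scalings by construction, since each shift is downward. Above 0 after each shift were 6 members (SCAP, NPC1, NPC1L1, ACACA, ACACB and FASN). With TMM, 26 members were lower at p under 0.05 (background 32.2%) and 5 were higher (background 27.7%). The part of length, level and scaling in the differences was not tested.

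**Figure D2:**
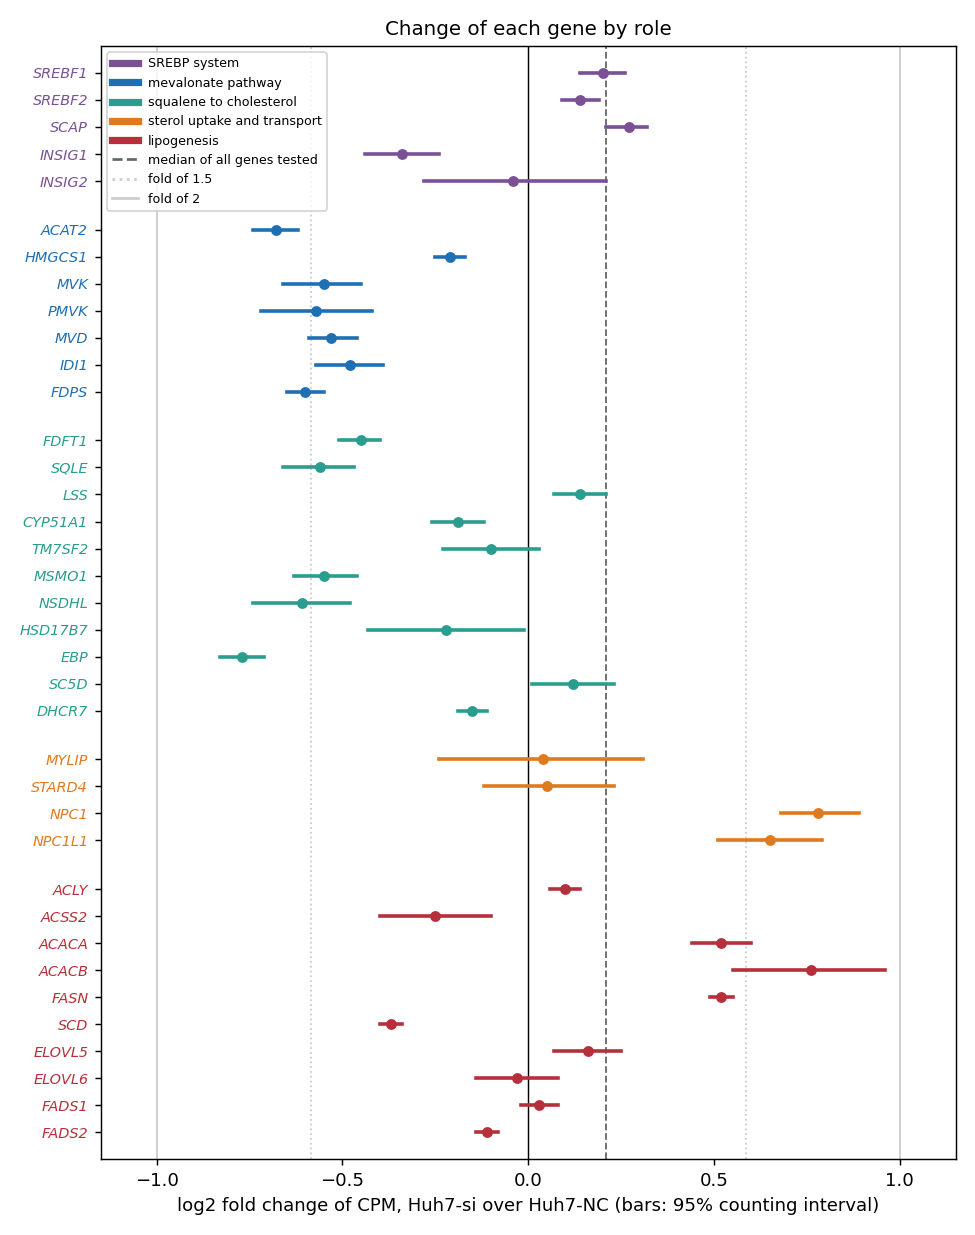
log2 ratio of CPM, Huh7-si over Huh7-NC, for each gene by role, with points for the values and bars for the 95% counting interval. The solid line marks no change, the dashed line the median of all genes tested (0.21), and the dotted and grey lines folds of 1.5 and 2; all 7 mevalonate genes lie left of the solid line and no point reaches a fold of 2.

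In the SREBP system by total reads, 3 genes were higher, 1 was lower and 1 did not pass the test, with a median of 0.14, where 41.8% of all genes were higher and 20% lower. The counts were 0 higher and 3 lower with TMM (median -0.09), 1 and 1 with the upper quartile, and 1 and 3 with the median of ratios. Reads of SREBF1 (ENSG00000072310), which encodes the factor tied to lipogenesis, numbered 3995 in the control and 4436 in the knockdown library, or 175 and 201 CPM, and its 82.0 and 114 TPM were the highest level of the group. Its log2 ratio was 0.20 (0.14 to 0.26, p = 2.0e-10, exact binomial test) and -0.02 with TMM. SREBF2, its paralogue tied to cholesterol synthesis, had 5458 and 5810 reads and a log2 ratio of 0.14 (0.09 to 0.19), or -0.09 with TMM. Both factors stood near the all-gene median, and their direction depended on the scaling. SCAP (ENSG00000114650), the escort of the SREBPs, had 4674 control reads and 5439 knockdown reads, or 205 and 246 CPM. At 0.27 (0.21 to 0.32, p = 1.2e-20, exact binomial test) it had the highest log2 ratio of the group and it was above 0 under each of the 4 scalings. Against genes of similar length it was at -0.04.

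INSIG1 (ENSG00000186480), which retains SCAP in the endoplasmic reticulum, had 1815 control reads and 1389 knockdown reads, or 79.4 and 62.9 CPM. Its log2 ratio of -0.34 (-0.44 to -0.24, p = 5.3e-11, exact binomial test) was the lowest of the group, and it was -0.11 by TPM. INSIG2, its paralogue, had 291 and 274 reads and a log2 ratio of -0.04 (-0.28 to 0.21, p = 0.77, exact binomial test). The intervals of the paralogues overlap between -0.28 and -0.24, and INSIG1 was the only gene of this group that fell at p under 0.05 by total reads. By the TPM columns INSIG2 went from 5.76 to 9.23, a log2 change of 0.67, and 50.5 reads stood behind each TPM in Huh7-NC but 29.7 in Huh7-si. GENCODE lists 8 transcripts of INSIG2, from 518 to 3185 bases.

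Among the promoters read, that of SREBF2 alone held the letters TCACNCCAC, a form of the sterol regulatory element, the motif bound by the SREBPs. Windows of 300 bases around RefSeq transcription starts (GRCh38.p14, 250 bases before and 50 after) were found for 33 of the 37 members, 45 windows in all. The 4 members without a window were ACAT2, FDFT1, SQLE and FASN. The element searched was TCACNCCAC, on both strands. It occurred in 2.22% of the members' windows, which is 1 window, and in 1.13% of all 35116 windows. The SREBF2 match lies 133 to 125 bases before the start. The 224 bases from the window's first base to the gene start of GENCODE, chr22:41832855-41833078 on the plus strand, are shown because they hold the only match, in capitals:
SREBF2: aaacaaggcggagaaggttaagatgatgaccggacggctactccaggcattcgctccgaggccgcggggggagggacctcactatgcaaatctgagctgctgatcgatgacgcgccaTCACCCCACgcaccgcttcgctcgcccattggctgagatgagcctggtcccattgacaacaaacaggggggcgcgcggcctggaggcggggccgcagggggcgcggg
A match of letters is a description and not a site shown to be bound, and a window without these letters is not shown to lack the element.

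The mevalonate pathway had the lowest median of the 5 groups. Its median log2 ratio was -0.55, with all 7 genes lower in Huh7-si by reads and under each of the 4 scalings, and its summed level was 1570 and 1150 CPM in the control and knockdown libraries (1250 and 1060 TPM). ACAT2 (ENSG00000120437; chromosome 6, 159760328 to 159779055 of GRCh38, plus strand), the cytosolic thiolase that joins acetyl-CoA units at the head of the pathway, had 5973 control reads and 3611 knockdown reads, or 261 and 163 CPM. Its log2 ratio was -0.68 (-0.74 to -0.62, p = 4.8e-113, exact binomial test), the lowest of the group. It overlaps TCP1 on the other strand, which had 10338 and 7471 reads. The strandedness of the libraries is not given in the sources used here, so reads from the shared bases might be assigned to either gene.

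HMGCS1 (ENSG00000112972; chromosome 5, 43289395 to 43313512, minus strand), the cytosolic HMG-CoA synthase, had the most reads of the group, with 12121 in the control and 10126 in the knockdown library, or 530 and 458 CPM. Its log2 ratio of -0.21 (-0.25 to -0.17, p = 2.1e-27, exact binomial test) was the nearest to 0 of the group. By TPM it went the other way, from 201 to 240, a log2 change of 0.26, below the all-gene median of 0.37 on that scale. Each TPM stood for 60.4 control but 42.2 knockdown reads, so the direction of HMGCS1 rests on which column is used. Against genes of similar length, at a median of 0.41, HMGCS1 lay at -0.62. It lay at -0.06 against genes of similar level and at -0.61 against genes of similar length and level.

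The middle steps moved together. MVK, mevalonate kinase, had 1870 control reads and 1232 knockdown reads (log2 ratio -0.55). PMVK, phosphomevalonate kinase, had 961 and 626 (-0.57). MVD, the decarboxylase that yields isopentenyl diphosphate, had 4892 and 3279 (-0.53), and its isomerase IDI1 had 2421 and 1673 (-0.48). All 4 were lower at p under 0.05 with the exact test (all genes 20%) and with an assumed coefficient of variation of 0.1 (7.61%). All 4 had lower TPM in Huh7-si. Their 4 intervals overlap. MVK lies opposite MMAB, which had 1652 and 972 reads.

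FDPS (ENSG00000160752; chromosome 1, 155308748 to 155320666, plus strand), farnesyl diphosphate synthase, makes the branch point metabolite of sterols, dolichol, ubiquinone and prenylated proteins. It was the member with the highest TPM in Huh7-NC, at 454, against 361 in Huh7-si. Reads numbered 7641 in the control and 4865 in the knockdown library, or 334 and 220 CPM, with a log2 ratio of -0.60 (-0.65 to -0.55, p = 2.3e-117, exact binomial test). Against genes of similar length it was -0.56. A further 10 genes of the isoprenoid branch use the products of this pathway for dolichol, ubiquinone and prenylation and are no members. By total reads none of them was lower at p under 0.05 in the exact binomial test and 3 were higher. All genes tested had 20% lower and 41.8% higher. The median of the 10 was 0.05, and all 10 lay below the all-gene median of 0.21. They were not counted under the other scalings.

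The steps from squalene to cholesterol were lower in most but not all genes. The median of the 11 genes was -0.22, with 8 lower and 2 higher at p under 0.05 (all genes 20% and 41.8%). The summed level was 1680 and 1360 CPM in the control and knockdown libraries. EBP (ENSG00000147155; chromosome X, 48521158 to 48528716, plus strand), the sterol isomerase also known as emopamil binding protein, had the lowest log2 ratio of all 37 members and the highest TPM of this group. Its reads numbered 6629 in the control and 3754 in the knockdown library, or 290 and 170 CPM (439 and 296 TPM). The log2 ratio was -0.77 (-0.83 to -0.71, p = 9.5e-157, exact binomial test), and -0.57 by TPM. EBP is a short gene of 1125 bases, and against genes of similar length it was -0.64, and against genes of similar length and level -0.36.

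Other enzymes of this stretch were close behind. NSDHL, a sterol dehydrogenase that helps remove methyl groups, had 1233 control reads and 779 knockdown reads (-0.61). SQLE, squalene epoxidase, had 2363 and 1545 (-0.56), and MSMO1, the methylsterol monooxygenase, had 2612 and 1729 (-0.55). FDFT1, squalene synthase, which commits farnesyl diphosphate to sterols, had 5868 and 4144 (-0.45). These 4 genes and EBP were the genes of the group that were also lower with an assumed coefficient of variation of 0.1 (all genes 7.61%).

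A second set of enzymes in the same stretch changed less. CYP51A1, the lanosterol demethylase, had 3306 control reads and 2801 knockdown reads (-0.19, and 0.02 by TPM), and DHCR7, which carries out the last reduction of one branch, had 10233 and 8938 (-0.15, and 0.04 by TPM). HSD17B7, a sterol ketoreductase, had 405 and 336 reads (-0.22, interval -0.43 to -0.01), and its pseudogene copy HSD17B7P2 had 26 and 40, so reads could be split between them. For TM7SF2, a sterol reductase, the log2 ratio was -0.10 (-0.23 to 0.03, p = 0.14, exact binomial test) from 1008 and 911 reads, and the gene shares its strand with VPS51 (2781 and 2094 reads). LSS (ENSG00000160285), lanosterol synthase, was the highest of the group: its 3458 control reads and 3683 knockdown reads, or 151 and 167 CPM, gave 0.14 (0.07 to 0.21, p = 4.2e-05, exact binomial test). SC5D, the sterol desaturase, had 1267 and 1332 reads and 0.12 (0.01 to 0.23). Both of these passed the test by total reads, but LSS stood at -0.08 and SC5D at -0.10 with TMM. No gene of the 18 in the mevalonate and squalene groups exceeded the all-gene median of 0.21.

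Over both stretches together, 15 of the 18 genes were lower and 2 higher at p under 0.05. All genes tested had 20% lower and 41.8% higher, and those at or above 9.75 CPM 31.2% and 45.7%. The median of the 18 was -0.51, and -0.29 by TPM, where all genes tested had 0.37. The genes that were no members but take part in sterol synthesis as enzymes or partners had a median of -0.29, with 7 of 9 lower and 1 higher (all genes 20% and 41.8%). CYB5A, the cytochrome that donates electrons to sterol and fatty acid desaturation, had 1539 and 944 reads (-0.66), the lowest of these. LBR, a sterol reductase of the nuclear envelope with a role in chromatin, had 1992 and 2517 (0.39), the highest.

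**Figure D3:**
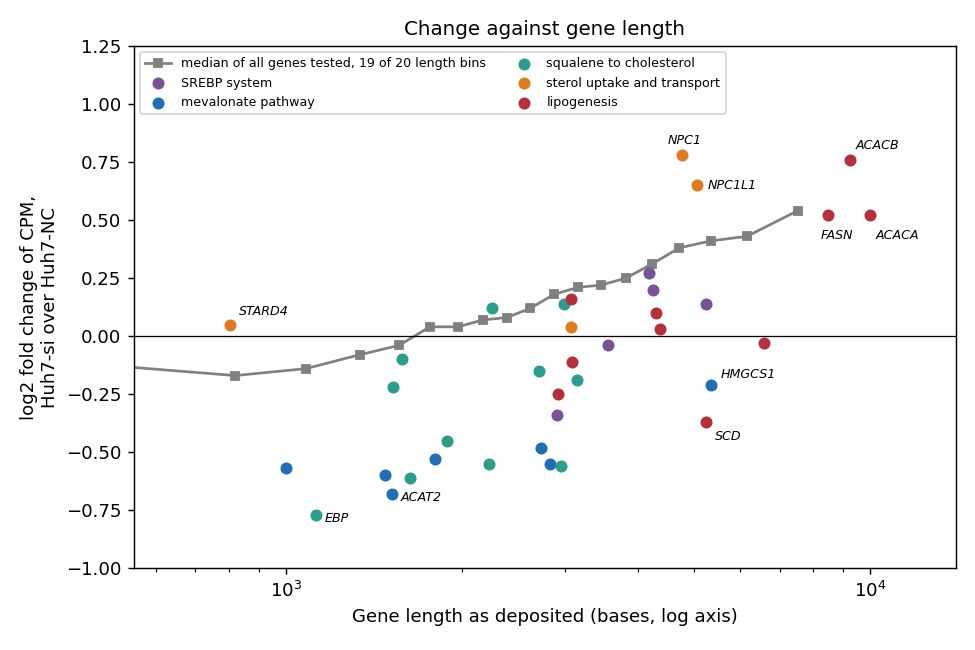
log2 ratio of CPM (Huh7-si over Huh7-NC) against deposited gene length in bases (log axis) for the 37 members, coloured by role, with the grey line giving the median of all genes tested in bins of length. The line, drawn without the bin of the longest genes (median 0.67, with ACACA and ACACB in it), lies between -0.17 and 0.54, and 32 of the 37 members lie below the median of their bin; NPC1 and NPC1L1 lie above it.

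The promoters of these genes were compared for the CCAAT box, the letters bound by NF-Y, a factor known to act beside SREBP. CCAAT or its complement ATTGG occurred in 29 of the members' 45 windows (64.4%), against 34.6% of all 35116 windows and 34.6% of the windows of genes tested. By role, the box was found in 5 of the 6 mevalonate genes with a window, 8 of the 9 from squalene to cholesterol, 7 of the 9 lipogenic genes, 3 of the 4 uptake genes and 2 of the 5 genes of the SREBP system. The GC box GGGCGG (complement CCGCCC) was in 84.4% of members' windows, against 45.0% of all windows and 63.3% of those of genes tested, and the E-box CACGTG in 13.3%, 7.26% and 9.12%. Promoters are shown for 3 sterol genes chosen after their values were seen: HMGCS1 as the mevalonate gene nearest 0, and MVD and MSMO1 as a lower gene of each stretch. Capitals mark CCAAT or ATTGG, each sequence is written along the gene's own strand and ends where the GENCODE gene begins, and the regions are chr5:43313513-43313662 (minus strand) for HMGCS1, chr16:88663162-88663341 (minus) for MVD and chr4:165327419-165327622 (plus) for MSMO1.
HMGCS1: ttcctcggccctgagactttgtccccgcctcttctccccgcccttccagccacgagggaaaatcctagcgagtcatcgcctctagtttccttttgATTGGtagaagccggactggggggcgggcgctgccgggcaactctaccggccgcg
MVD: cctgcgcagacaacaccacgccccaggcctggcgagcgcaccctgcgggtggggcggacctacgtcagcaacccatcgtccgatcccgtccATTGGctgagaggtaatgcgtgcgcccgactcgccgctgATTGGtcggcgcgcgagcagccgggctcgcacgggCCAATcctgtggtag
MSMO1: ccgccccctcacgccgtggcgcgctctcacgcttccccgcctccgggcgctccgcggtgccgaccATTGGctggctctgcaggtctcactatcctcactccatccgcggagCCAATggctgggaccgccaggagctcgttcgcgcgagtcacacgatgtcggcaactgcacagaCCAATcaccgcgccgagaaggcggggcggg
HMGCS1 holds 1 box in this stretch, MVD 3 and MSMO1 3, but the stretches differ in length (150, 180 and 204 bases). Past the printed stretch, the same window of HMGCS1 holds a further box at -100 to -96 from the transcription start. That of MSMO1 holds a further box at -34 to -30. No relation between boxes and change was tested.

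Of the 4 sterol uptake and transport genes, 2 (50%) were higher by total reads and 2 did not pass the test, with a median of 0.35. This share was near that of all genes tested, of which 41.8% were higher and 20% lower. With TMM the counts were the same (all genes 27.7% higher and 32.2% lower) and the median was 0.13. The genes that did not pass, STARD4 and MYLIP, then stood below 0, at -0.17 and -0.19. NPC1 (ENSG00000141458; chromosome 18, 23506184 to 23586898, minus strand), which exports cholesterol from lysosomes, had the highest log2 ratio of all 37 members and the highest TPM of its group. It had 1236 control reads and 2058 knockdown reads, or 54.1 and 93.2 CPM (23.6 and 44.1 TPM). The log2 ratio was 0.78 (0.68 to 0.89, p = 3.2e-53, exact binomial test), and 0.40 above genes of similar length. RMC1, on the other strand of NPC1, had 480 reads in both libraries. NPC1L1, the surface transporter of dietary and biliary sterols, had 725 control reads and 1098 knockdown reads and a log2 ratio of 0.65 (0.51 to 0.79).

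The remaining uptake genes had few reads. MYLIP (ENSG00000007944), a ubiquitin ligase that marks lipoprotein receptors for degradation, had 220 control reads and 218 knockdown reads, or 9.63 and 9.87 CPM. Its log2 ratio was 0.04 (-0.24 to 0.31, p = 0.81, exact binomial test) and -0.19 with TMM. STARD4, a cytosolic sterol carrier, had 519 and 521 reads and 0.05 (-0.12 to 0.23). A difference of either gene was not detectable at this depth. Of 8 other genes of sterol storage and lysosomal release, 4 (50%) were higher and 2 (25%) lower, near the 41.8% and 20% of all genes tested, with a median of 0.14; NCEH1, a cholesteryl ester hydrolase, had 395 and 531 reads (0.48).

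Lipogenesis was divided within itself. Its median was 0.07, or -0.16 with TMM, with 5 genes higher, 3 lower and 2 not past the test by total reads (all genes 41.8% higher and 20% lower), but 3 higher and 6 lower with each of the 3 other scalings. Its summed level was 3890 and 4050 CPM in the control and knockdown libraries. FASN, which builds palmitate, had the second most reads of the set in Huh7-NC, 20205, and the most in Huh7-si, 28001, or 884 and 1270 CPM. The log2 ratio was 0.52 (0.49 to 0.55), and 0.57 by TPM. The gene is 8464 bases long, and against genes of similar length it lay at -0.02. Against genes of similar level it lay at 0.67, and against genes of similar length and level at 0.12.

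The acetyl-CoA carboxylases make malonyl-CoA, the building block for FASN and, from ACACB at the mitochondrial surface, an inhibitor of fatty acid oxidation. ACACA had 2067 control reads and 2861 knockdown reads, a log2 ratio of 0.52 (0.44 to 0.60). ACACB (ENSG00000076555; chromosome 12, 109116595 to 109268226, plus strand) had 314 and 513, or 13.7 and 23.2 CPM, and its 0.76 (0.55 to 0.96, p = 1.2e-13, exact binomial test) was the highest of the group. Both paralogues were higher under each of the 4 scalings, and their intervals overlap. Against genes of similar length ACACA was -0.15 and ACACB 0.09. By TPM ACACB went from 2.76 to 10.5, a log2 change of 1.89, the single member past a fold of 2 on that scale (background 17.9% higher and 1.38% lower). The TPM of ACACB stood for 114 control and 48.8 knockdown reads per unit; GENCODE lists 15 transcripts of it, from 290 to 9360 bases.

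The enzymes that supply acetyl-CoA differed in direction by total reads. ACLY, which splits citrate, had 10887 control reads and 11273 knockdown reads, or 0.10 (0.06 to 0.14), and -0.13 with TMM. ACSS2, which activates acetate, had 793 and 646 reads and -0.25 (-0.40 to -0.10), but 0.17 by TPM. GGT7 overlaps ACSS2 on the other strand and had 485 and 871 reads.

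Among the enzymes that modify fatty acids, SCD (ENSG00000099194; chromosome 10, 100347124 to 100364834, plus strand), the stearoyl-CoA desaturase that makes oleate, was the lowest of the group. It had the most reads of all members in Huh7-NC, 25462, against 19033 after knockdown (1110 and 862 CPM). The log2 ratio was -0.37 (-0.40 to -0.34, p = 5.2e-160, exact binomial test). At 5245 bases it was a long gene, and it lay at -0.79 against genes of similar length, the lowest of all members on that scale. SCD and FASN, neighbours in the pathway, thus moved in opposite directions by total reads, and under all 4 scalings.

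FADS2 (ENSG00000134824), the first desaturase of polyunsaturated fatty acids, had the highest TPM of the group in Huh7-NC, 365, against 387 in Huh7-si. It had 19792 control reads and 17734 knockdown reads, or 866 and 803 CPM, and a log2 ratio of -0.11 (-0.14 to -0.08, p = 2.3e-13, exact binomial test), but 0.08 by TPM. It shares its strand with FEN1 (8057 and 5299 reads) and overlaps FADS1 on the other. FADS1, the next desaturase, had 6172 and 6102 reads and 0.03 (-0.02 to 0.08, p = 0.21, exact binomial test). ELOVL5, which lengthens polyunsaturated chains, had 1832 and 1981 reads and 0.16 (0.07 to 0.25), or -0.06 with TMM. ELOVL6, which lengthens palmitate, had 1443 and 1366 and -0.03 (-0.14 to 0.08, p = 0.58, exact binomial test). By TPM, however, ELOVL6 went from 93.8 to 59.2, a log2 change of -0.66, with 15.4 reads behind each TPM in Huh7-NC and 23.1 in Huh7-si. By total reads none of these 4 genes shifted by more than 0.16, and with TMM FADS2 stood at -0.33, ELOVL6 at -0.25 and FADS1 at -0.19.

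**Figure D4:**
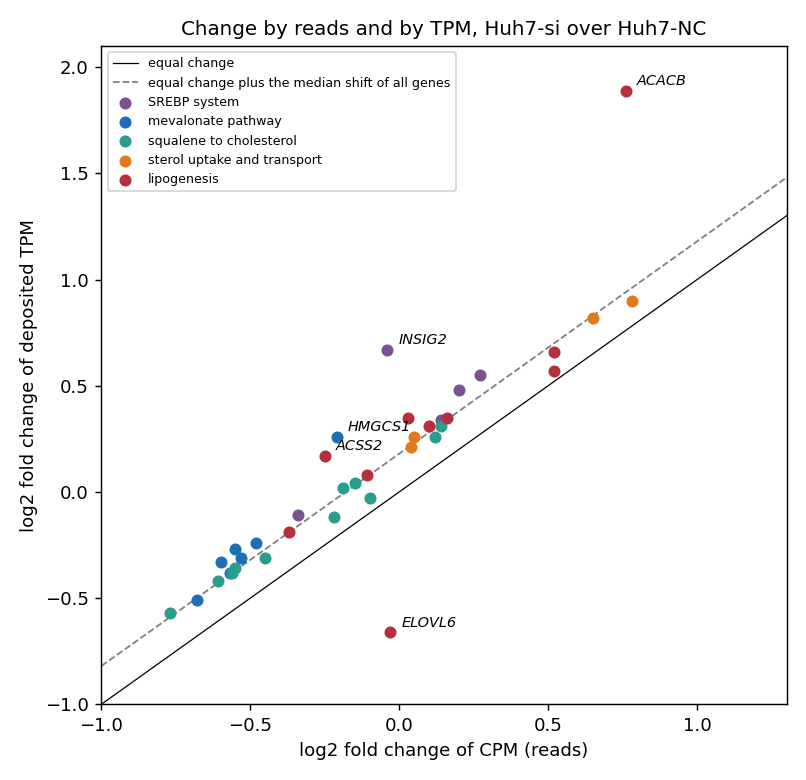
log2 ratio by the deposited TPM (vertical) against that by CPM (horizontal) for the 37 members, Huh7-si over Huh7-NC, coloured by role. The solid line marks equal change and the dashed line equal change plus the median shift of all genes, 0.18; ACACB and INSIG2 lie far above it and ELOVL6 far below.

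The reads and the TPM columns gave like changes for most members. Over 13396 genes with at least 1 TPM in both libraries, the TPM change exceeded the CPM change by a median of 0.18, with -0.17 at the lower and 0.50 at the upper end of the central range (percentiles 5 and 95). Of all these genes 4.34% lay further than 0.5 from that median, and 3 members did: ACACB, INSIG2 and ELOVL6. By TPM 16 members were lower, against 3981 of the 15743 genes tested that have a symbol. All 16 were also below 0 by total reads, and so under the other 3 scalings by construction. The 6 members higher under the 4 scalings were also higher by TPM. The 16 include 6 mevalonate genes, all but HMGCS1, and 7 of the genes from squalene to cholesterol.

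**Figure D5:**
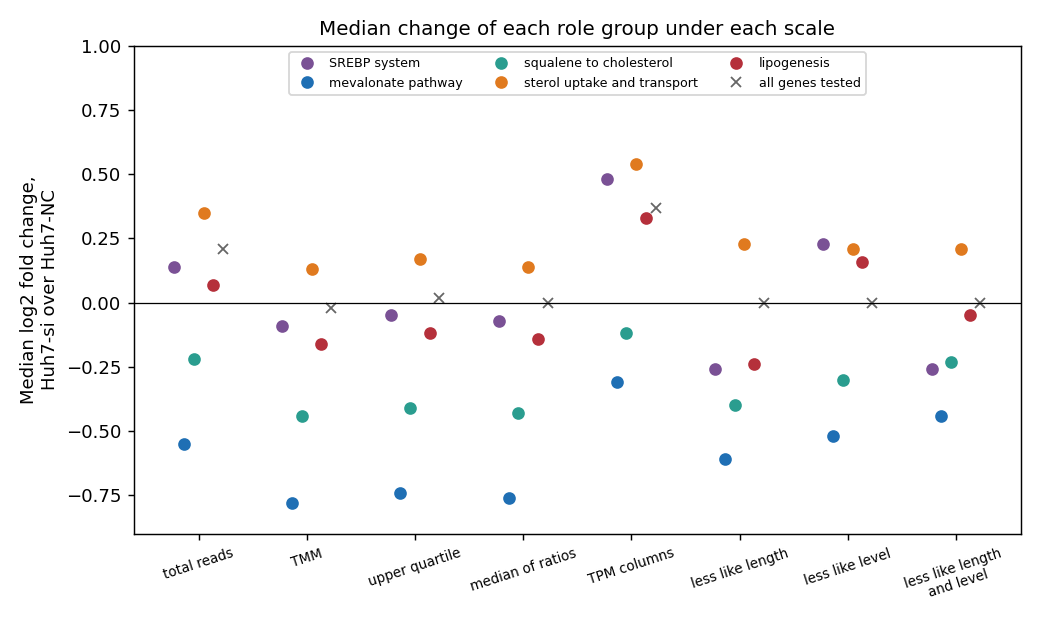
Median log2 ratio (Huh7-si over Huh7-NC) of each role group and of all genes tested (crosses) under 8 scales: 4 scalings of the reads, the TPM columns, and the change set against the median of genes of similar length, similar level, or both. The mevalonate median is the lowest under each scale, from -0.78 to -0.31. The sterol uptake median, of 4 genes, is above 0 under each. Of these 4, STARD4 and MYLIP are below 0 with TMM (-0.17 and -0.19) and against similar level (-0.12 and -0.27).

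Genes around the members were counted as well. Of 71 other genes of the SREBP, sterol, isoprenoid, fatty acid and glycerolipid routes, grouped by role, 30 (42.3%) were higher and 18 (25.4%) lower at p under 0.05, near the 41.8% and 20% of all genes tested, with a median of 0.08. The 14 genes of SREBP processing and degradation had a median of 0.20, near the 0.21 of all genes tested. In the exact test 11 were higher (78.6%) and none lower (all genes 41.8% and 20%). With an assumed coefficient of variation of 0.1, 4 were higher (28.6%, all genes 26.5%). Against genes of similar length 9 of the 14 were lower, with a median of -0.07. FBXW7, which marks active SREBP for degradation, was the highest (399 and 637 reads, 0.72). The 22 genes of fatty acid supply, activation and chain length had a median of 0.07 (8 higher, 6 lower), and the 8 of glycerolipid synthesis -0.04 (3 higher, 3 lower). A fold of 2 was passed upward by 2 of the 71, against 12.9% of all genes tested, namely ELOVL7, a fatty acid elongase, and LPIN3, a phosphatidate phosphatase. ELOVL7 had 37 control reads and 134 knockdown reads, a log2 ratio of 1.89 (1.37 to 2.47, p = 5.9e-15, exact binomial test), and LPIN3 had 210 and 547, with 1.43 (1.20 to 1.67, p = 5.1e-38, exact binomial test). DGAT2, which completes triglyceride synthesis, had 1248 and 792 reads (-0.61), the lowest of its list.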

How the data were processed

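RNA-seq libraries of Huh7-NC and Huh7-si cells were compared, 1 library per group, with groups taken from the sample labels. The authors deposited, for each gene, an estimated count of reads per library, not scaled for depth, and a TPM value, which is scaled for transcript length and depth. The submitters' processing notes list Bowtie2 2.0.6, TopHat2 2.0.12 and GRCh37; the counting tool and strandedness are not given in the sources used here. The table carries no coordinates, and 94.8% of its identifiers are in GENCODE release 29 (GRCh38), which supplied positions, transcripts and overlaps. Overlapping genes with reads were found for 14 members. Columns of the authors' own comparison (fold change, log2 fold change, p-values, calls) were not used, and 0 per-sample columns remained unused.

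Estimated counts were rounded to whole reads. Log2 ratios of CPM were computed with a pseudocount of 0.5 reads, 95% Clopper-Pearson intervals and a two-sided exact binomial test with unadjusted p, over the 17957 genes with at least 10 reads over both libraries. Called genes had a fold of at least 2 and p under 0.05, the thresholds the study names. A count of 0 allows up to 3 reads, or 0.131 and 0.136 CPM in the Huh7-NC and Huh7-si libraries; depth limits the precision and intervals cover counting error only. TPM changes used a pseudocount of 0.1 TPM and no test. Similar length and similar level refer to the medians of 20 bins, or 5 by 5 bins for both. Length is the deposited gene length, and reads per TPM did not follow it for every member. In Huh7-NC, STARD4, at 803 bases, had 61.9 reads per TPM, and ELOVL6, at 6570 bases, had 15.4. Whether the deposited length matches the transcripts counted was not tested.

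The members and lists were chosen with earlier results of these data known. Full values are given for members called at a fold of 2 and, in each role group, for the highest and lowest log2 fold change and the highest TPM in Huh7-NC; other members are given by reads and change. Other pathway genes were named if called or as the highest or lowest of a list with at least 100 reads, and SREBP system, mevalonate, squalene, uptake and lipogenesis groups follow known roles. Alternatives were other scalings (edgeR's TMM, upper quartile, DESeq2's median of ratios), tests, filters, pseudocounts and the TPM columns; comparisons with genes of similar level, alone or with length, and the reads per TPM were added after seeing the data. The tests were checked on simulated reads. Promoters came from RefSeq (GRCh38.p14), matched by symbol. The scripts ran in R 4.3.3 (DESeq2 1.42.0, edgeR 4.0.16) and Python 3.11.15 (SciPy 1.17.1, pandas 2.3.3, matplotlib 3.10.9, NumPy 2.4.6).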

Additional observations from a re-analysis of the deposited data

How the results depend on the processing

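No paired analysis was possible because each group has 1 library, and leaving out a library was not run for the same reason. The causes of the moves below were not tested, except that a lower fold threshold calls more genes by construction. With no pseudocount or a pseudocount of 1 CPM, all 37 members kept their direction. The counts of members at a fold of 2, 0 higher and 0 lower, became 3 and 4 at a fold of 1.5 and 1 higher by TPM (ACACB, 1.89), and stayed at 0 under the other scalings, filters and tests. The counts at a fold of 1.5 were 0 and 12 with TMM, 1 and 11 with the upper quartile and 0 and 11 with the median of ratios. The share of all genes called lower, 1.17%, became 2.23% with TMM, 1.95% with the upper quartile and 2.08% with the median of ratios. At a fold of 1.5 the shares were 23.5% higher and 3.89% lower, and with an assumed coefficient of variation of 0.4 they were 3.17% and 0.301%. Higher genes made up 91.7% of the calls with total reads, 79.9% with TMM, 82.9% with the upper quartile and 81.5% with the median of ratios.

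Medians are given for TMM, upper quartile, median of ratios and TPM in that order. They were -0.33, -0.29, -0.32 and 0.08 for all members, -0.09, -0.05, -0.07 and 0.48 for the SREBP system, -0.78, -0.74, -0.76 and -0.31 for the mevalonate pathway, -0.44, -0.41, -0.43 and -0.12 for squalene to cholesterol, 0.13, 0.17, 0.14 and 0.54 for sterol uptake, and -0.16, -0.12, -0.14 and 0.33 for lipogenesis. Against similar length the medians were -0.28 for all members, -0.26 for the SREBP system, -0.61 for the mevalonate pathway, -0.40 for squalene to cholesterol, 0.23 for uptake and -0.24 for lipogenesis. Against similar level, the SREBP system was at 0.23, uptake at 0.21 and lipogenesis at 0.16. Against both, all members were at -0.23, the SREBP system at -0.26, the mevalonate pathway at -0.44, uptake at 0.21 and lipogenesis at -0.05.

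Single genes changed sign as follows. With TMM these were ELOVL5 (-0.06), STARD4 (-0.17), SREBF1 (-0.02), LSS (-0.08), ACLY (-0.13), MYLIP (-0.19), SC5D (-0.10), FADS1 (-0.19) and SREBF2 (-0.09). With the upper quartile they were ELOVL5 (-0.02), STARD4 (-0.13), LSS (-0.05), ACLY (-0.09), MYLIP (-0.15), SC5D (-0.06), FADS1 (-0.15) and SREBF2 (-0.05). With the median of ratios they were ELOVL5 (-0.05), STARD4 (-0.15), SREBF1 (-0.01), LSS (-0.07), ACLY (-0.11), MYLIP (-0.17), SC5D (-0.09), FADS1 (-0.17) and SREBF2 (-0.07). By TPM they were DHCR7 (0.04), FADS2 (0.08), CYP51A1 (0.02), ACSS2 (0.17), HMGCS1 (0.26) and INSIG2 (0.67). Against similar length they were ELOVL5 (-0.05), SREBF1 (-0.11), LSS (-0.04), SCAP (-0.04), ACLY (-0.21), ACACA (-0.15), MYLIP (-0.17), FADS1 (-0.27), SREBF2 (-0.28) and FASN (-0.02). Against similar level they were STARD4 (-0.12), DHCR7 (0.01), FADS2 (0.04) and MYLIP (-0.27), and against both ACLY (-0.04), MYLIP (-0.14), FADS1 (-0.10), TM7SF2 (0.01) and SREBF2 (-0.26).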
